A study of Caenorhabditis elegans with 27 samples.

Results

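Cytosolic ribosomal protein genes of Caenorhabditis elegans were represented by 108 probe sets of 74 genes, among 11102 probe sets that were tested. They were the probe sets annotated to a single gene whose symbol starts with rpl- (large subunit) or rps- (small subunit), with a log2 value over 5 in at least 3 of 27 arrays. Of 111 probe sets with such a symbol, 3 did not pass that minimum. These were the only probe set of rpl-42 (mean log2 2.096 over all arrays) and extra probe sets of rpl-12 (4.31) and rpl-8 (2.55), whose other probe sets stayed in. The large subunit held 63 probe sets of 44 genes and the small subunit 45 probe sets of 30 genes, and 31 genes had more than 1 probe set. Symbols rla-0, rla-1, rla-2 and ubl-1, which the same rule would have taken, do not occur in the annotation of the array. The gene once called ubl-1 (H06I04.4) is listed as rps-27A and is a member, and the stalk proteins, listed as rplp genes, are described apart.

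RNA of whole worms had been hybridised to Affymetrix expression arrays. All 9 groups were of strain GE24 and carried pha-1(e2123), a temperature-sensitive allele that is known to be lethal to embryos at the restrictive temperature. Worms were kept at 15 °C, and synchronised first-stage larvae were grown at 25 °C. They received HuminFeed (HF), a preparation of humic substances, or HuminFeed-Hydroquinone (HF-HQ), with the food. In the first experiment 3-day-old adults had received 0, 0.2 or 2.0 mM HF, given as dissolved organic carbon. In the second experiment the adults had received the same doses of HF and were 11 days old. In the third experiment 3-day-old adults had received 0, 0.2 or 2.0 mM HF-HQ. Each experiment had its own untreated control and each of the 9 groups had 3 arrays. The age tag of all 27 arrays reads L4 larvae, whereas the series' design and protocol call the worms adults. Cultures were set up in triplicate. Whether these were independent populations is not stated in the labels, so p-values measure the spread between arrays, which may be technical.

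The cytosolic ribosome is built from ribosomal RNA and about equal amounts of each ribosomal protein, and its small subunit reads the messenger RNA while its large subunit joins the amino acids. In the worm most of these proteins are encoded by single genes that are expressed in all tissues, with particularly high demand in the growing germ line and in oocytes, which are loaded with ribosomes for the embryo. A few are encoded by paralogous genes, whose products can be used to different extents in the germ line and in the soma.

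Most members gave signals near the top of the range of every array. Their median stood at the 99.4 to 99.6 percentile of all probe sets in each array, and the lowest member of a group had a mean percentile between 71.6 and 78.6. Replicate arrays were close, with a median SD of 0.03 to 0.05 log2 over the members of a group, compared with 0.06 to 0.13 over all tested probe sets. The lowest correlation within a group was 0.987 over the tested probe sets, among the arrays with 0.2 mM HF-HQ. On the deposited scale the members' median per array was 13.22 to 13.36 in the first experiment, 12.68 to 12.79 in the second and 14.55 to 14.64 in the third. Over all 27 arrays the maximum of an array lay between 13.94 and 15.99. Because the scales of the experiments differ, values are compared between experiments only after quantile normalization over all 27 arrays. How far the nearness of the members to the top of the scale limits the size of their changes was not tested. In whole worms, fewer cells of a type and less RNA per cell cannot be told apart. The labels give RNA integrity numbers of 9 or 10 for all samples, and the log2 difference between 5′ and 3′ probe sets of the ubiquitin control was -2.95 in the 3-day controls and -3.10 and -3.04 with 0.2 and 2.0 mM HF.

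The first comparison set 3-day-old adults that had received 0.2 mM HF against their untreated controls. On the deposited scale ribosomal protein transcripts shifted slightly and unevenly. Most of those called were lower, by 0.11 to 0.47 log2, while a few large subunit genes were clearly higher. This predominance of lower calls was not seen with arrays centred on their medians. Of 108 member probe sets 39 were lower, 4 were higher and 65 were not called (limma, Benjamini-Hochberg adjusted p under 0.05), whereas with arrays centred on their medians 19 were lower and 21 higher. Over all tested probe sets 32.9% were called lower and 26.0% higher on the deposited scale. The shares with centred arrays are not given, so the centred counts cannot be set against a background. On the deposited scale 39.8% of the members were called in either direction, against 58.9% of all tested probe sets. Their median change was -0.04, or 0.04 with centred arrays. The typical size of a change was 0.0869 (median of the absolute log2 change) against 0.301 over all tested probe sets. On the deposited scale the share of members called lower was thus close to that of all probe sets, and the share called higher was below it. The numbers of members called depended on the scaling.

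**Figure D1:**
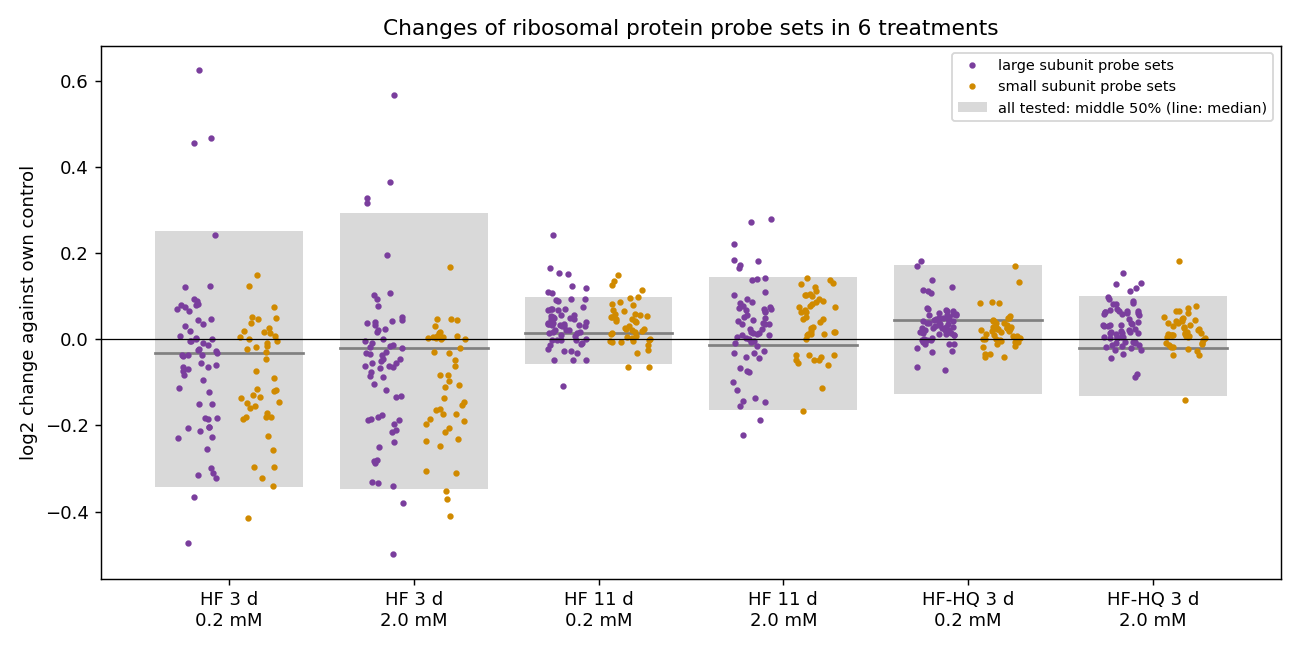
Log2 change of each member probe set against the untreated control of its own experiment, for the 6 treatments (points, large and small subunit apart). Grey bars span the middle 50% of all 11102 tested probe sets and the grey line is their median; the widest spread of the members is seen with HF at 3 days, where rpl-23A.1 lies at 0.63 and rpl-23A.2 at -0.47.

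Among large subunit genes the strongest fall was that of rpl-23A.2 (F52B5.6), whose protein sits at the exit of the tunnel through which new chains leave the ribosome. Its log2 values were 13.70, 13.59 and 13.66 in the controls and 13.16, 13.13 and 13.23 with 0.2 mM HF. All treated arrays lay below all controls, a change of -0.47 ± 0.05 (SE, n = 3 per group, limma adjusted p = 2.01e-07). Its paralog rpl-23A.1 (F55D10.2) went the other way, with 11.46, 11.42 and 11.52 in the controls and 12.10, 12.06 and 12.12 with 0.2 mM HF. Again the groups did not overlap, and the rise was 0.63 ± 0.06 (adjusted p = 2.59e-08), the largest of any member in this comparison. These paralogs were listed as rpl-25.2 and rpl-25.1 in older annotation.

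A second pair of paralogs was split in the same manner. The genes rpl-11.1 and rpl-11.2 encode versions of the protein that, with that of rpl-5, holds the 5S ribosomal RNA, and rpl-11.1 is known for a role in the germ line. For rpl-11.1 the controls had 13.45, 13.44 and 13.47 and the worms with 0.2 mM HF 13.105, 13.155 and 13.005. For rpl-11.2 the controls had 12.04, 11.97 and 11.93 and the treated worms 12.44, 12.43 and 12.48. Every treated array lay below every control for rpl-11.1 and above every control for rpl-11.2. The changes were -0.37 ± 0.05 (adjusted p = 8.6e-07) and 0.47 ± 0.06 (adjusted p = 4.29e-07). The partner gene rpl-5 itself was not called at either dose of HF at this age. Of the 74 member genes, only rpl-11.2 and rpl-23A.1 lie on the X chromosome according to RefSeq (WBcel235), and these had the largest rises. As background, the X chromosome is largely silent in the germ line of the worm, and a link with these rises was not tested.

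Within each array the difference between these paralogs narrowed with HF at 3 days. The log2 difference rpl-23A.2 minus rpl-23A.1 changed by -1.10 ± 0.03 with 0.2 mM HF and by -1.07 ± 0.04 with 2.0 mM HF. For rpl-11.1 minus rpl-11.2 the change was -0.83 ± 0.07 and -0.71 ± 0.05. An exact two-sided permutation test gave p = 0.1 for each of these, which is the smallest p that 3 arrays against 3 allow. Since the groups of each gene did not overlap and the paralogs moved oppositely, this p was fixed in advance and adds no evidence. At 11 days with 2.0 mM HF both differences widened, by 0.18 ± 0.04 for the rpl-23A and 0.22 ± 0.07 for the rpl-11 genes (exact permutation p = 0.1 each), and with 0.2 mM they changed by -0.07 ± 0.03 and -0.29 ± 0.04. With 0.2 and 2.0 mM HF-HQ the rpl-23A difference changed by -0.16 ± 0.09 (exact permutation p = 0.2) and -0.15 ± 0.05 (p = 0.1). The rpl-11 difference changed by -0.18 ± 0.09 and -0.10 ± 0.03 (exact permutation p = 0.1 each). The difference rpl-41.1 minus rpl-41.2 changed by 0.04 ± 0.04 (exact permutation p = 0.5) and 0.09 ± 0.03 (p = 0.1) with 0.2 and 2.0 mM HF at 3 days. Levels of different probe sets do not measure which paralog is more abundant, so only the changes are read here.

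**Figure D2:**
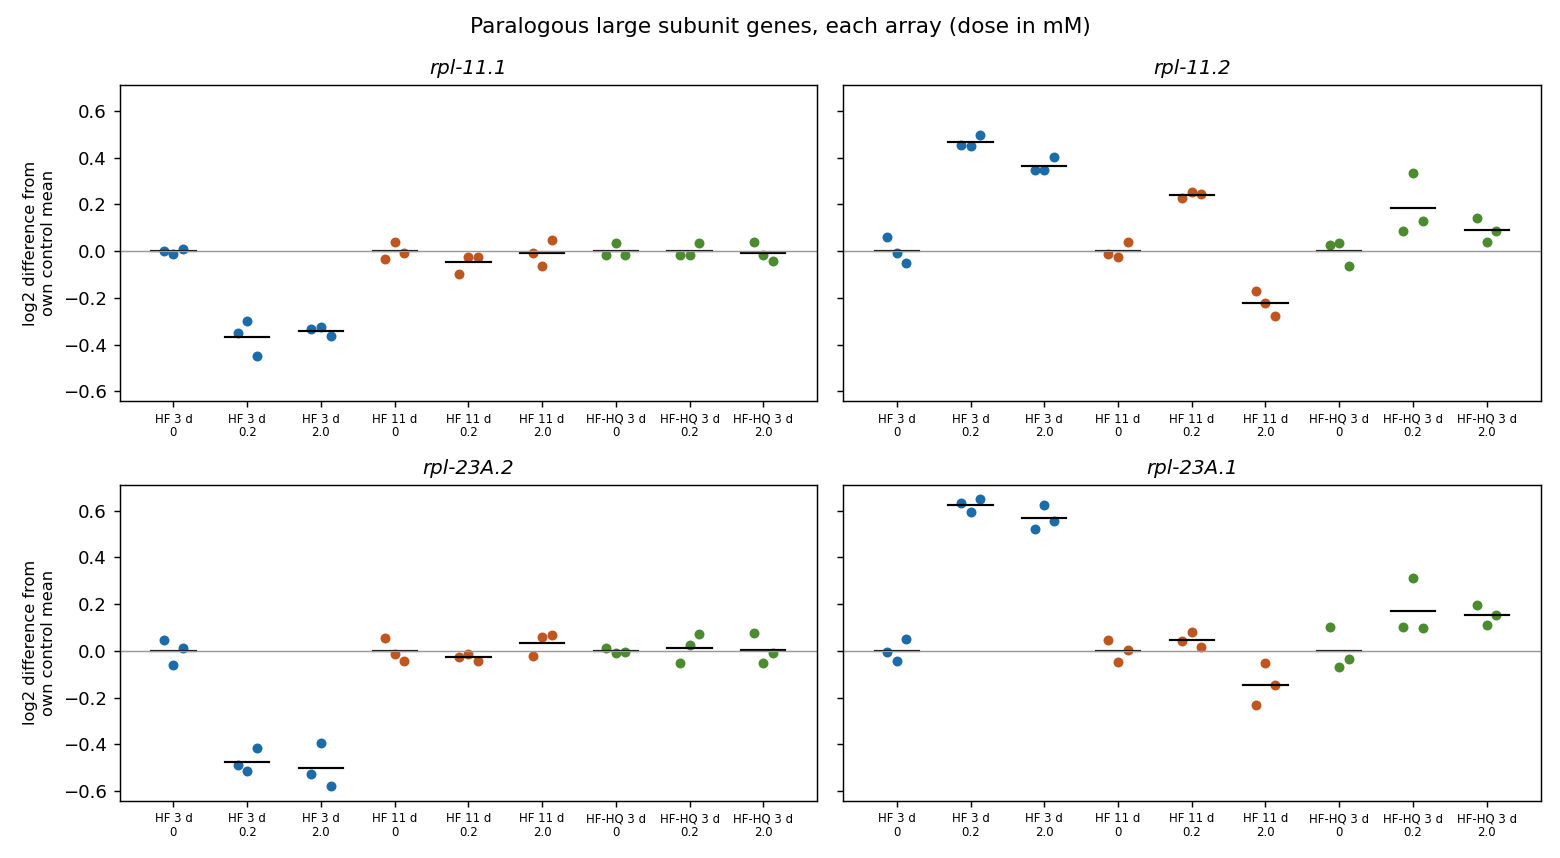
Log2 difference of each array from the mean of the untreated arrays of its own experiment for rpl-11.1, rpl-11.2, rpl-23A.2 and rpl-23A.1 (points, arrays; lines, means of 3). With HF at 3 days rpl-11.1 and rpl-23A.2 lie below and rpl-11.2 and rpl-23A.1 above their controls in all 6 treated arrays.

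Other large subunit genes moved less. The genes rpl-10L, whose counterpart in other eukaryotes is placed late in the maturation of the large subunit, and rpl-7 fell by 0.32 ± 0.04 (adjusted p = 1.15e-06) and 0.31 ± 0.05 (adjusted p = 7.77e-06). For rpl-10L the controls had 13.61, 13.66 and 13.60 and the treated worms 13.27, 13.31 and 13.32. For rpl-7 the values were 13.31, 13.32 and 13.35 in controls and 12.96, 13.04 and 13.05 with 0.2 mM HF. Neither gene's groups overlapped. For rpl-7A, whose protein is not related to that of rpl-7 despite its name, the change was 0.00 (adjusted p = 0.954). The third large subunit gene that rose was rpl-29, from 13.45, 13.51 and 13.45 to 13.69, 13.74 and 13.72. All of its treated arrays were higher than all controls (0.24 ± 0.05, adjusted p = 3.99e-04). The copies of rpl-41, which encode the smallest ribosomal protein, were not called at this dose (0.12, adjusted p = 0.0831, for rpl-41.1 and 0.08, adjusted p = 0.185, for rpl-41.2), nor was rpl-24 (-0.08, adjusted p = 0.0847). In all, 19 of 63 large subunit probe sets (30.2%) were lower and 4 (6.35%) were higher on the deposited scale, against 32.9% and 26.0% of all tested probe sets.

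Of 45 small subunit probe sets, 20 (44.4%) were lower and 0 were higher on the deposited scale, against 32.9% and 26.0% of all tested probe sets. Centring, which gave 19 lower and 21 higher over both subunits, was not split by subunit. The largest fall was that of rps-9, which encodes a protein that binds early in the assembly of the small subunit. It stood at 13.71, 13.61 and 13.66 in the controls and at 13.18, 13.23 and 13.33 with 0.2 mM HF. The treated arrays were all lower than the controls, and the change was -0.41 ± 0.05 (adjusted p = 1.14e-06). For rps-7 the controls had 12.92, 12.99 and 12.98 and the treated worms 12.69, 12.61 and 12.57. These groups also did not overlap (-0.34 ± 0.05, adjusted p = 1.4e-05). The gene rps-6, whose protein is the substrate of the S6 kinase, fell by 0.18 ± 0.05 (adjusted p = 2.86e-03), but with centred arrays its adjusted p was 0.0796. The gene rps-27A, once called ubl-1, which encodes a small subunit protein, was not called (0.04, adjusted p = 0.479).

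**Figure D3:**
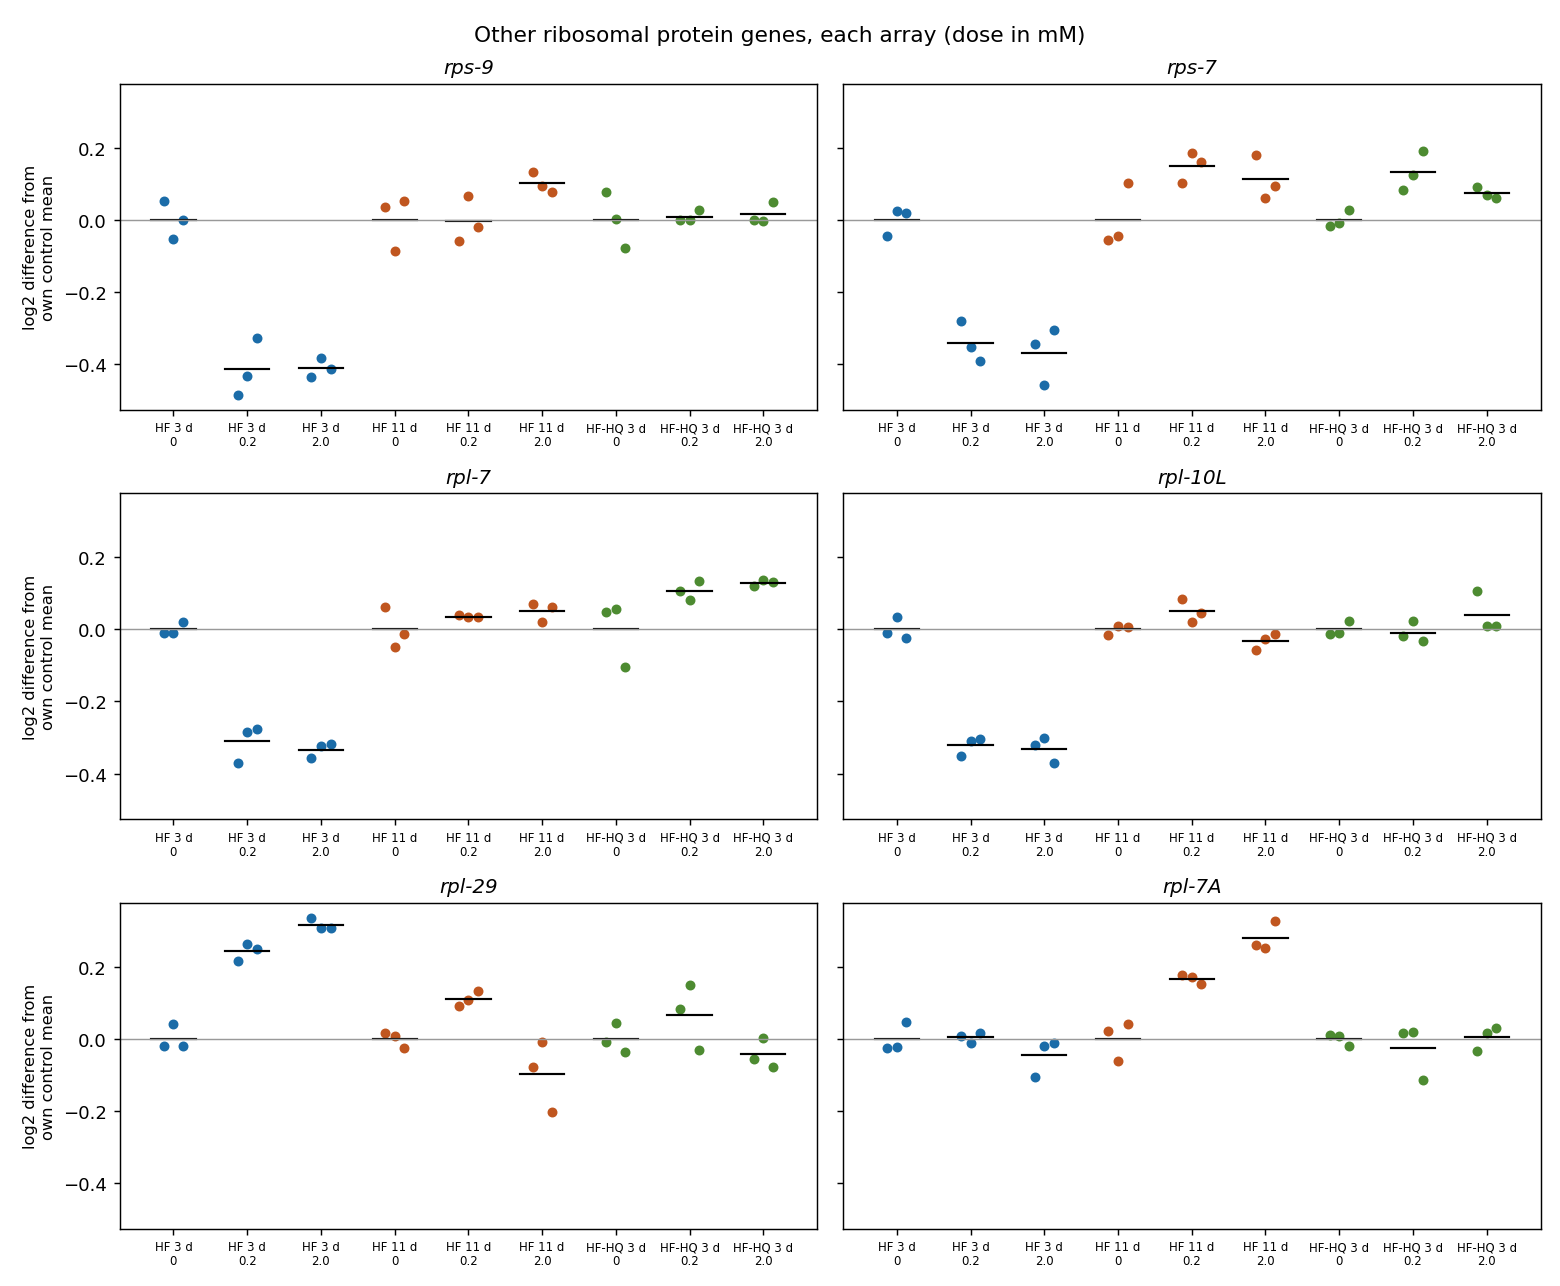
Log2 difference of each array from the mean of the untreated arrays of its own experiment for rps-9, rps-7, rpl-7, rpl-10L, rpl-29 and rpl-7A (points, arrays; lines, means of 3). The first 4 genes lie below their controls with HF at 3 days, rpl-29 lies above them, and rpl-7A differs from its controls with HF at 11 days.

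Both doses of HF at 3 days were compared with the same controls, so the values of the higher dose are given beside those of the lower and are not separate evidence. With 2.0 mM HF 41 members were lower and 6 were higher on the deposited scale. Of all tested probe sets 32.9% were called lower and 28.0% higher on that scale. With centred arrays 26 members were lower and 11 higher. The shares of all tested probe sets with centring are not given, so these counts cannot be set against a background. The median change was -0.06, or 0.01 with centred arrays. Of the large subunit 20 probe sets were lower and 5 higher, and of the small subunit 21 lower and 1 higher, on the deposited scale. The paralogs again parted, with 13.12, 13.26 and 13.07 for rpl-23A.2 (-0.50, adjusted p = 6.73e-08) and 11.99, 12.09 and 12.02 for rpl-23A.1 (0.57, adjusted p = 6.9e-08). The values were 13.12, 13.13 and 13.09 for rpl-11.1 (-0.34, adjusted p = 1.79e-06) and 12.33, 12.33 and 12.39 for rpl-11.2 (0.37, adjusted p = 8.41e-06). All of these arrays lay outside the range of their controls.

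At this dose rps-9 fell by 0.41 (adjusted p = 9.79e-07), rps-7 by 0.37 (adjusted p = 4e-06) and rpl-7 by 0.33 (adjusted p = 2.42e-06). The rise of rpl-29 was 0.32 (adjusted p = 1.81e-05), with 13.81, 13.78 and 13.78 all above the controls. Also called higher were rpl-41.1 (0.20 ± 0.06, adjusted p = 6.54e-03) and rps-2 (0.17 ± 0.06, adjusted p = 0.0178), whose protein lies near the entry of the messenger RNA, although rps-2 was lost when only the arrays of this comparison were fitted and in 3 of 6 fits without 1 array. The falls of rps-6 (-0.14, adjusted p = 0.013) and rpl-24 (-0.12, adjusted p = 0.0158) did not pass with centred arrays. For rpl-41.2 the change was 0.11 (adjusted p = 0.073), for rpl-7A -0.05 (adjusted p = 0.428) and for rps-27A 0.01 (adjusted p = 0.904). Between the 2.0 and 0.2 mM groups 1 member was called higher and 0 were lower, against 13.4% and 7.65% of all tested probe sets.

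Probe sets of the same gene mostly moved alike. Of 31 genes with several probe sets, all probe sets of 26 genes had the same sign with 0.2 mM HF and those of 27 genes with 2.0 mM, and no gene had probe sets called in opposite directions. The widest difference was 0.15, between the probe sets of rps-21. Among the members 55 probe sets had the suffix _s_at and 20 the suffix _x_at, which mark probes that can match more than 1 transcript, so that values of near-identical paralogs may share signal.

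**Figure D4:**
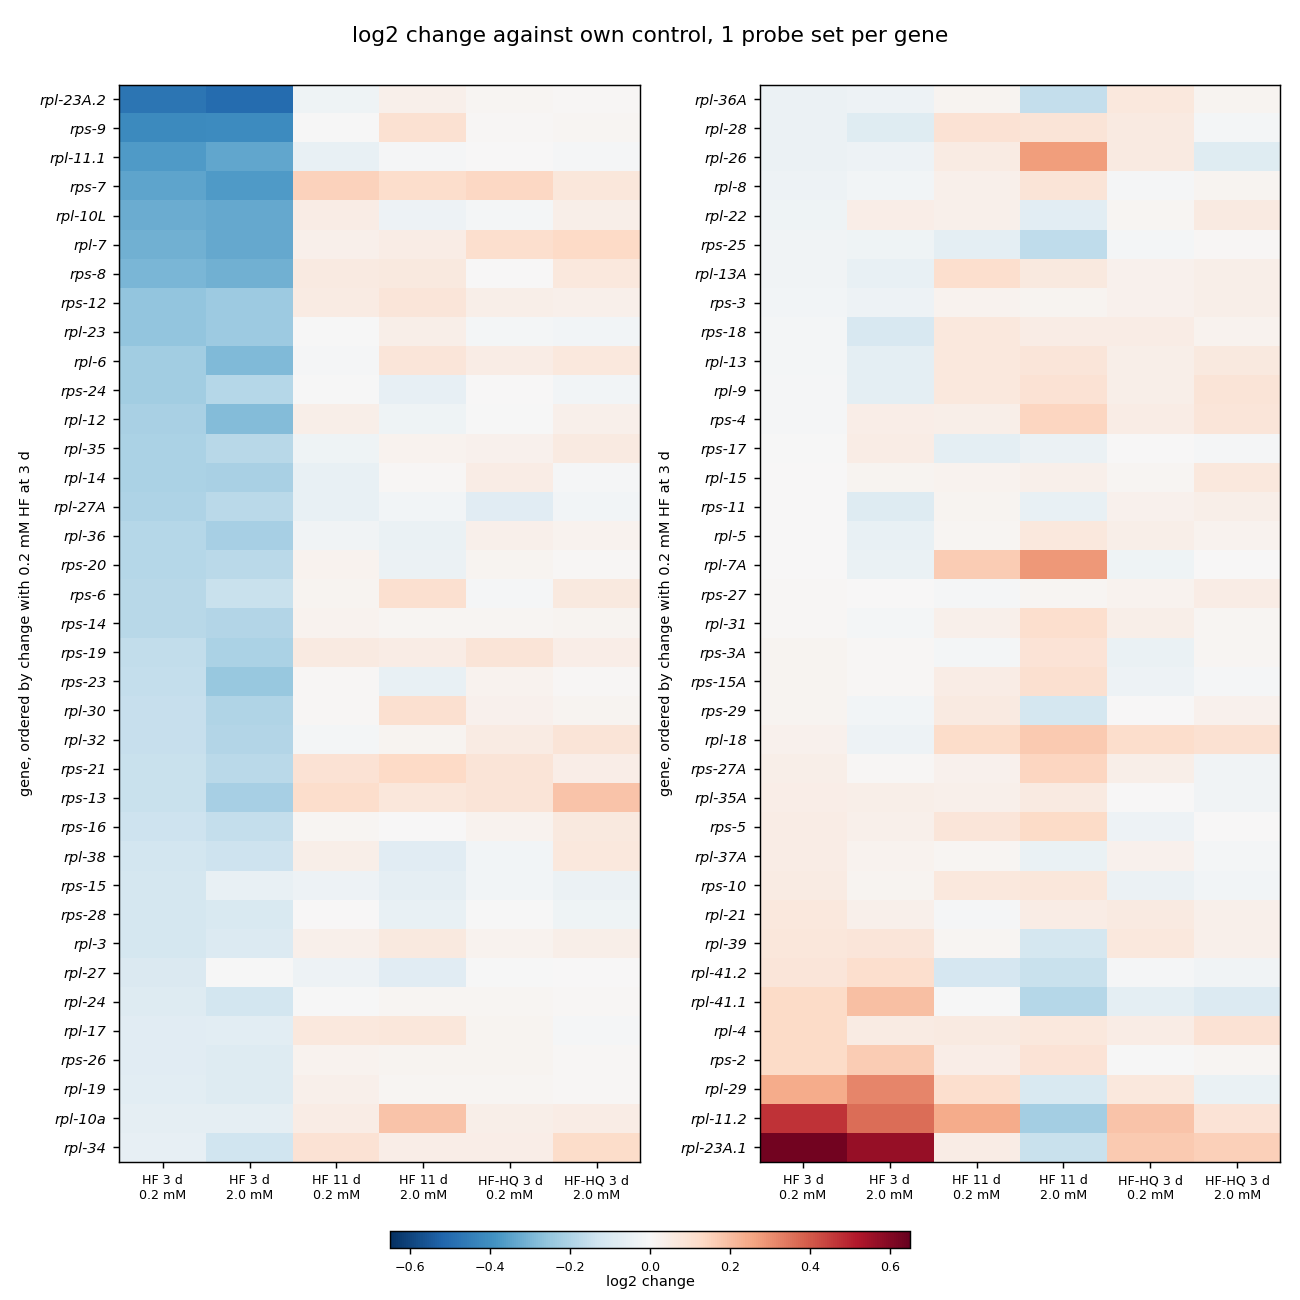
Log2 change against the control of the same experiment for all 74 member genes (rows, the probe set with the highest mean) in 6 treatments (columns), ordered by the change with 0.2 mM HF at 3 days. At that dose and age rpl-23A.2, rps-9 and rpl-11.1 lie at the low end and rpl-29, rpl-11.2 and rpl-23A.1 at the high end; changes in the other 4 columns, HF at 11 days and HF-HQ, lie between -0.22 (rpl-11.2) and 0.28 (rpl-7A).

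Markers of the germ line moved in the same comparisons. Of 19 germ line and oocyte genes 18 were lower with 0.2 mM HF at 3 days (median -0.47) and 17 were lower and 1 higher with 2.0 mM (median -0.40). Their mean log2 level per array was 10.65 to 10.68 in the controls, 10.19 to 10.25 with 0.2 mM and 10.28 to 10.29 with 2.0 mM, and none was under log2 5 in all arrays of a group. Intestinal markers were higher in 7 of 8 cases at both doses (medians 0.66 and 0.63). Of 8 body wall muscle genes 6 were higher at both, and 2 were under log2 5 in all arrays of each of these groups. The mean level of 7 neuronal genes was 7.12 to 7.24 in the controls, 7.35 to 7.40 with 0.2 mM and 7.38 to 7.53 with 2.0 mM. For 4 hypodermal genes the mean levels were 11.28 to 11.38, 11.46 to 11.48 and 11.35 to 11.40. Sperm genes went in opposite directions at the 2 doses, with 27 of 34 higher and 4 lower at 0.2 mM and 34 lower at 2.0 mM. The part of these shifts in the changes of the ribosomal protein genes was not tested.

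In 11-day-old adults few members responded to HF. With 0.2 mM HF 2 members were higher and 0 were lower, where 3.22% of all tested probe sets were called higher and 0.784% lower. The members were rpl-11.2, with 10.86, 10.85 and 10.91 in the controls and 11.104, 11.129 and 11.117 with HF (0.24, adjusted p = 0.0129), and rpl-7A (0.17, adjusted p = 0.0478). For rpl-7A the call was lost under 10 of 12 alternatives, and for rpl-11.2 under 5 of 12. None of the 6 fits without 1 array called more than 1 member.

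With 2.0 mM HF at 11 days 10 members were higher and 6 lower, against 13.4% and 14.8% of all tested probe sets, so that both shares lay below the background. The number higher depended on the fit, with 20 under a variance trend, 6 with centred arrays, 3 when no other arrays were fitted and 5 to 13 on leaving out 1 array, of which 5 came without the second control array. The number lower was 2 to 5 on leaving out 1 array. The median change was 0.04, or 0.0048 with centred arrays. The highest rise was that of rpl-7A, from 12.09, 12.01 and 12.11 to 12.33, 12.32 and 12.40, with no overlap (0.28 ± 0.05, adjusted p = 1.47e-04). Next was rpl-26, with 12.48, 12.42 and 12.34 in the controls and 12.55, 12.80 and 12.71 with HF (0.27 ± 0.07, adjusted p = 3.91e-03), whose other probe set was not called. The gene rpl-10a, whose protein forms the L1 stalk that helps spent transfer RNA to leave, rose by 0.18 (adjusted p = 4.97e-03) with all 3 of its probe sets called. Also higher were rpl-18 (0.17, adjusted p = 5.15e-03) and rps-27A (0.14, adjusted p = 0.0228), the latter lost in 6 of 12 alternatives. In the other direction rpl-11.2 went to 10.71, 10.65 and 10.60, below all controls (-0.22, adjusted p = 5.41e-03). The falls of rpl-41.1 (-0.19, adjusted p = 0.0219), rps-25 (-0.17, adjusted p = 0.0157), rpl-36A (-0.15, adjusted p = 0.0194) and rpl-41.2 (-0.14, adjusted p = 0.038) were each lost in 4 to 6 of 12 alternatives. Neither rps-6 (0.11, adjusted p = 0.11) nor rpl-23A.1 (-0.14, adjusted p = 0.0869) was called.

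The doses differed from each other most clearly for rpl-11.2 at this age. It was lower with 2.0 than with 0.2 mM HF by 0.47 (adjusted p = 2.43e-06), and the 3 groups ran in the order 2.0 mM, control and 0.2 mM without overlap. In the same comparison rpl-29 (-0.21, adjusted p = 4.25e-03), rpl-23A.1 (-0.19, adjusted p = 0.0229) and rpl-41.1 (-0.19, adjusted p = 0.0205) were lower and rpl-26 was higher (0.22, adjusted p = 0.0154), of which the calls of rpl-23A.1, rpl-41.1 and rpl-26 were lost in 6, 4 and 5 of 12 alternatives. In all 4 members were higher and 7 lower, against 12.2% and 18.3% of all tested probe sets. Germ line and oocyte markers were higher with 2.0 mM HF at 11 days in 13 of 19 cases and lower in 0 (median 0.30), with a mean level of 10.76 to 10.82 per array against 10.45 to 10.49 in the controls. Sperm genes were higher in 24 of 34 cases. Their mean level lay near the log2 5 minimum, at 5.44 to 5.54 in the controls and 6.07 to 6.25 with 2.0 mM. Of the 34 genes, 13 and 9 were under log2 5 in all arrays of these groups. The part of germ line or sperm genes in these changes was not tested.

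Few members were called with HF-HQ. With 0.2 mM HF-HQ 5 members were higher and 0 lower, against 15.9% and 14.3% of all tested probe sets, and with 2.0 mM 1 was higher and 0 lower, against 13.2% and 10.3%. The median changes were 0.03 and 0.02. With 0.2 mM the named rises were those of rpl-11.2 (0.18, adjusted p = 0.0183), rpl-23A.1 (0.17, adjusted p = 0.041) and rpl-18 (0.11, adjusted p = 0.0494), lost in 3, 6 and 8 of 12 alternatives. For rpl-11.2 the controls had 12.94, 12.95 and 12.85 and the treated worms 12.995, 13.245 and 13.041. The second array with 0.2 mM HF-HQ was the highest of these, and without it no member was called. For rpl-23A.1 the values were 13.26, 13.09 and 13.12 in controls and 13.25, 13.47 and 13.25 with 0.2 mM, where the groups overlapped. With 2.0 mM the call was rps-13, with 14.17, 14.32 and 14.13 in controls and 14.42, 14.34 and 14.41 with HF-HQ (0.18, adjusted p = 0.0277), lost in 6 of 12 alternatives. Between the doses of HF-HQ 0 members were higher and 1 lower, against 17.5% and 15.7% of all tested probe sets.

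The ubiquitin 5′ to 3′ difference was -2.08 in the HF-HQ controls, -2.44 with 0.2 mM and -2.15 with 2.0 mM. Of the germ line and oocyte markers 7 were lower and 1 higher with 0.2 mM HF-HQ, and 4 were lower with 2.0 mM. Intestinal markers were higher in 3 of 8 cases with 0.2 mM and in 7 of 8 with 2.0 mM. The part of these in the members' values was not tested.

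Whether the response to HF differed between ages was tested directly, as the difference of the changes after quantile normalization. The ages came from separate experiments with their own controls, so age and experiment cannot be told apart in these differences. For 0.2 mM HF 25 members had a higher change at 11 than at 3 days and 4 a lower one, where 21.8% and 18.2% of all tested probe sets did. For 2.0 mM HF 39 were higher and 6 lower, against 31.8% and 29.4%. With ranks within arrays in place of normalized values these counts were 1 and 1 at 0.2 mM and 2 and 3 at 2.0 mM. Members near the top of every array can move little in rank, so counts with ranks, here and below, cannot decide whether the differences hold. On the normalized values the shares of members on the higher side were close to the background, and those on the lower side were below it. With 1 probe set per gene, the differences (11 minus 3 days) were 0.55 for rps-7, 0.49 for rpl-23A.2 and 0.42 for rps-9 at 0.2 mM, and 0.52, 0.55 and 0.55 at 2.0 mM. In the opposite direction were rpl-23A.1 (-0.48 at 0.2 mM, adjusted p = 3.16e-04, and -0.64 at 2.0 mM, adjusted p = 4.73e-06) and rpl-29 (-0.22 and -0.46). For rpl-11.1 the difference was 0.31 and 0.27 and called at both doses. For rpl-11.2 it was -0.10 (adjusted p = 0.338) at 0.2 mM and -0.51 (adjusted p = 8.84e-06) at 2.0 mM. For rps-6 it was 0.17 at both doses, called at 2.0 mM (adjusted p = 0.0383) and not at 0.2 mM (adjusted p = 0.0523), and rps-27A was called at neither.

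The preparations were compared in the same manner at 3 days, as the change with HF-HQ minus that with HF. At 0.2 mM 26 members were higher and 3 lower, against 21.8% and 15.5% of all tested probe sets. At 2.0 mM 31 (28.7%) were higher and 7 (6.48%) lower, against 23.3% and 22%. In both directions 35.2% of the members were called at 2.0 mM, against 45.3% of all tested probe sets. Ranks within arrays gave 1 higher and 1 lower at 0.2 mM and 1 and 2 at 2.0 mM. With 1 probe set per gene, the largest differences were those of rps-7 (0.56 and 0.51), rpl-23A.2 (0.51 and 0.47) and rps-9 (0.42 and 0.44). Differences below 0 were found for rpl-23A.1 (-0.37, adjusted p = 2.77e-03, and -0.42, adjusted p = 6.71e-04) and rpl-29 (-0.24 and -0.38). For rpl-11.1 they were 0.33 and 0.27, and for rpl-11.2 -0.19 (adjusted p = 0.0637) and -0.29 (adjusted p = 4.11e-03). The experiments had separate controls and separate arrays, so preparation and experiment cannot be told apart, and the comparisons of ages and of preparations share the arrays with HF at 3 days.

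Untreated worms were also set against each other after quantile normalization. In 11-day-old compared with 3-day-old controls 36 members were higher and 28 lower, where 40.6% and 35.8% of all tested probe sets were, whereas on the deposited scale 0 were higher and 107 lower (median -0.62 in place of 0.04) and with ranks 6 were higher and 7 lower. Among genes taken with their probe set of the highest mean, rps-2 led after normalization. It had 13.08, 13.06 and 13.18 at 3 days and 13.67, 13.56 and 13.60 at 11 days. It was higher in every older array (0.50, adjusted p = 1.66e-08), and rps-3A (0.42), rpl-15 (0.39), rpl-21 (0.38) and rpl-4 (0.37) followed, but all 5 of these genes had the opposite sign on the deposited scale. The largest fall by the same choice was that of rpl-11.2, from 12.31, 12.27 and 12.22 to 11.71, 11.70 and 11.76 (-0.55, adjusted p = 5.21e-09). Also lower were rps-20 (-0.32), rpl-22 (-0.25), rps-9 (-0.22) and rpl-23A.1 (-0.21, adjusted p = 4.8e-03). Over all probe sets, another one of rps-18 fell further (-0.76) and another one of rps-10 rose by 0.45. Probe sets of 1 gene differed by up to 0.70, for rps-18, and those of rps-15A were called in opposite directions. Of the germ line and oocyte markers 11 were higher and 0 lower at 11 days, and of 34 sperm genes 31 were lower (median -5.06). On the deposited scale 13 of the sperm genes were under log2 5 in all 11-day controls and 4 in all 3-day controls. The ubiquitin 5′ to 3′ difference was -2.95 in the 3-day and -3.21 in the 11-day controls on the deposited scale. The ages came from different experiments, so age and experiment cannot be told apart.

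The untreated 3-day-old worms of the HF-HQ and HF experiments, which carry the same labels for age and treatment, also differed. On the deposited scale the ubiquitin 5′ to 3′ difference was -2.95 in the HF and -2.08 in the HF-HQ controls. The part of this in the members' values was not tested. After normalization 44 members were higher and 33 lower in the HF-HQ experiment, against 43.5% and 39.6% of all tested probe sets, and on the deposited scale all 108 were higher (median 1.32 in place of 0.03), while ranks gave 16 higher and 12 lower. The widest difference was that of rpl-18, with 13.01, 13.04 and 13.03 in the HF experiment and 14.03, 14.04 and 13.97 in the HF-HQ experiment (0.99, adjusted p = 1.87e-14). Its other probe set was not called (adjusted p = 0.445), so the value rests on 1 probe set. With 1 probe set per gene, higher as well were rpl-4 (0.89), rpl-7A (0.62), rpl-31 (0.51) and rps-27A (0.50). Lower were rps-13 (-0.56), rpl-41.1 (-0.55), rps-12 (-0.55), rps-9 (-0.52) and rpl-14 (-0.51), each with the opposite sign on the deposited scale.

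Ribosomal proteins whose symbols lie outside the rule were looked up after the members' values had been seen. With 0.2 mM HF at 3 days the stalk protein gene rplp-0, whose product anchors the stalk that recruits elongation factors, changed by 0.11 (adjusted p = 0.133). Its partners rplp-1 (0.03, adjusted p = 0.705) and rplp-2.2 (-0.04, adjusted p = 0.497) were not called, and of the probe sets of rplp-2.1 one was lower (-0.13, adjusted p = 0.0348). The small subunit gene rpsa-1 was not called. The ubiquitin fusion gene ubq-2, which supplies a large subunit protein, fell by 0.22 with 0.2 mM (adjusted p = 6.74e-04) and by 0.26 with 2.0 mM HF (adjusted p = 1.05e-04). The gene fau-1, whose product carries the small subunit protein S30, fell by 0.21 (adjusted p = 1.7e-03) and 0.33 (adjusted p = 1.42e-05).

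Genes that make and serve the ribosome were described by lists alongside its proteins. Of 20 genes of ribosome biogenesis 15 were lower and 1 higher with 0.2 mM HF at 3 days (median -0.53), and 16 lower and 3 higher with 2.0 mM (median -0.46). The nucleolar protein genes nol-10 (-0.85 ± 0.05, adjusted p = 2.99e-11) and nol-9 (-0.81) and the gene lpd-7 (-0.80) led with 0.2 mM, and with 2.0 mM lpd-7 (-0.96), nol-10 (-0.78) and the nucleostemin gene nst-1 (-0.77). Of 30 aminoacyl-tRNA synthetase genes, whose products load transfer RNA, 17 were lower and 0 higher with 0.2 mM, and 14 lower and 3 higher with 2.0 mM. At 0.2 mM hars-1 (-0.74), iars-2 (-0.57) and fars-3 (-0.55) were foremost.

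Of 32 initiation factor genes 15 were lower and 3 higher with 0.2 mM HF at 3 days, and 13 lower and 6 higher with 2.0 mM. They included ife-1 (-0.67 ± 0.05, adjusted p = 9.87e-10, and -0.70 with 2.0 mM), which encodes a cap-binding protein of the germ line, ife-5 (-0.82) and eif-3.H (-0.76), and with 2.0 mM eif-3.E (-0.97). Of 8 elongation and release factor genes 1 was higher with 0.2 mM. This was eef-1A.2, which encodes an elongation factor that brings transfer RNA to the ribosome, with a rise of 0.69 ± 0.10 (adjusted p = 6.19e-06) and of 0.69 with 2.0 mM. Of 57 mitochondrial ribosomal protein genes 22 were lower and 16 higher with 0.2 mM, and 21 lower and 19 higher with 2.0 mM. Among them mrps-5 (-0.85), mrps-25 (-0.69) and mrps-6 (-0.66) were lowest with 0.2 mM, and mrpl-24 rose by 0.71 with 2.0 mM. Of 18 regulators of translation and growth 7 were lower and 3 higher, with daf-15 (-0.55), aak-1 (-0.50) and rict-1 (-0.50) foremost. For all tested probe sets the shares were 32.9% lower and 26.0% higher with 0.2 mM HF, and 32.9% and 28.0% with 2.0 mM.

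**Figure D5:**
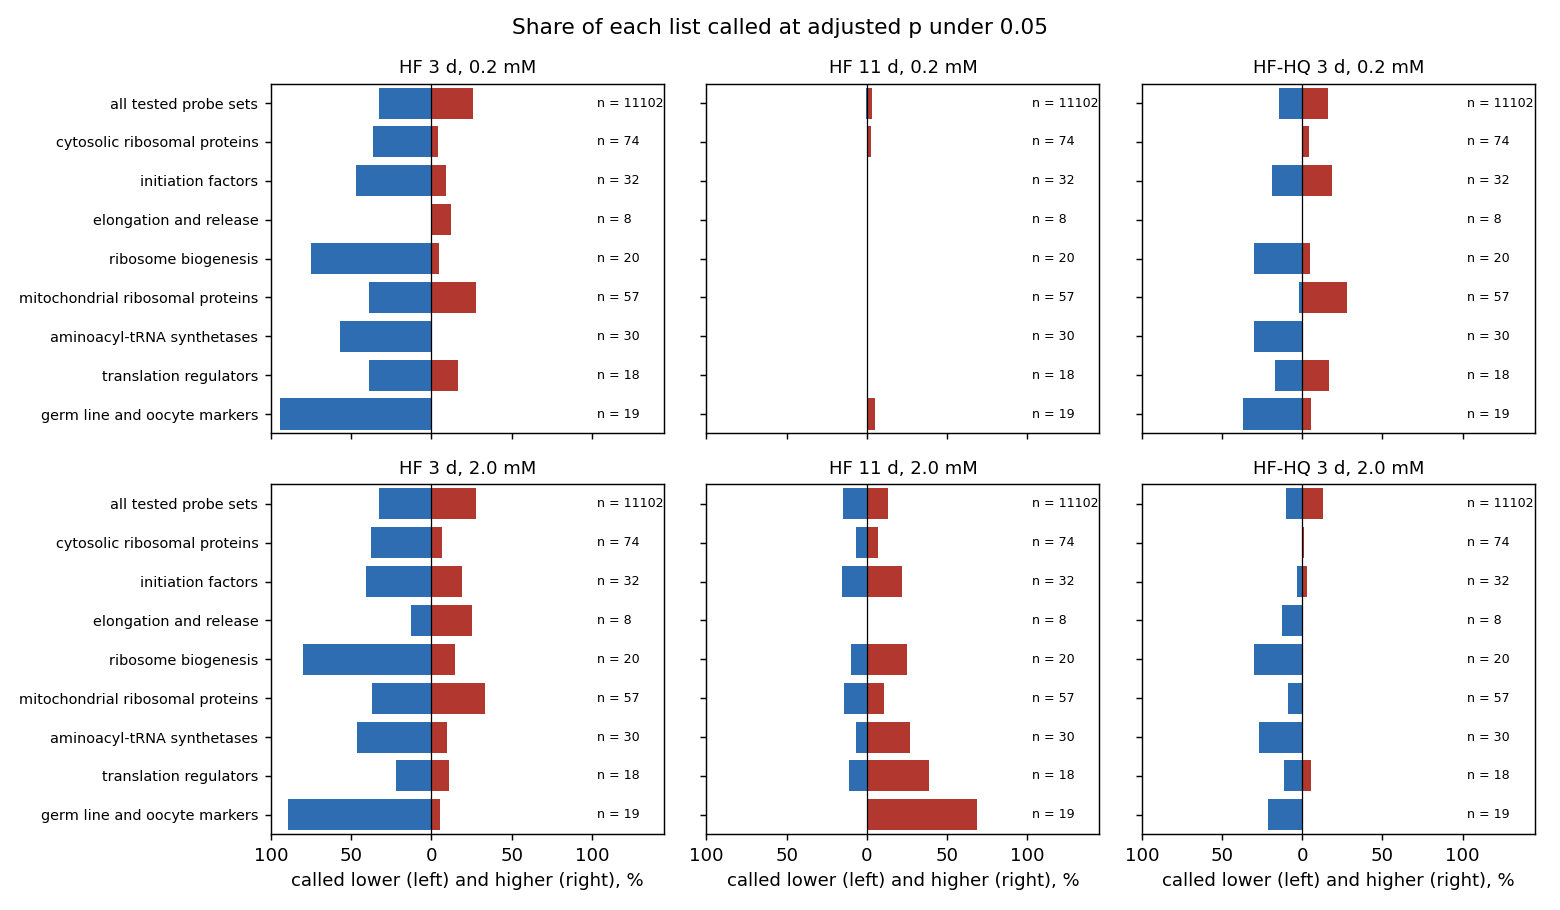
Percentage of each list called lower (blue, left) or higher (red, right) at a limma adjusted p under 0.05 in the 6 treatments, with the number of genes (1 probe set per gene) or, for all tested, probe sets. With 0.2 mM HF at 3 days 15 of 20 biogenesis genes and 18 of 19 germ line markers were lower, while the cytosolic ribosomal proteins stayed near the share of all tested probe sets on the lower side.

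At 11 days with 0.2 mM HF none of these lists had a called gene. With 2.0 mM HF, where 13.4% of all tested probe sets were higher and 14.8% lower, 5 of 20 biogenesis genes were higher and 2 lower, and the rises included nol-6 (0.70), dao-5 (0.47) and the RNA polymerase I subunit gene rpoa-1 (0.45). Of the regulators 7 of 18 were higher and 2 lower, led by gcn-1 (0.68), which acts in the sensing of amino acid shortage, ncl-1 (0.53), a repressor of nucleolar size, and rict-1 (0.51). Of the initiation factors 7 of 32 were higher and 5 lower, with ifg-1 at 0.48, and of the synthetases 8 of 30 were higher and 2 lower, with ears-1 at 0.36. With 0.2 mM HF-HQ, where 15.9% of all tested probe sets were higher and 14.3% lower, 6 of 20 biogenesis genes and 9 of 30 synthetase genes were lower, led by tars-1 (-0.71), whereas 16 of 57 mitochondrial ribosomal protein genes were higher and 1, mrpl-44 (-0.45), was lower. With 2.0 mM HF-HQ, where the shares were 13.2% and 10.3%, 6 biogenesis genes, among them rbd-1 (-0.38), and 8 synthetase genes, led by aars-1 (-0.66), were lower, and iff-2, which encodes the factor eIF5A, was higher (0.47).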

How the data were processed

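The authors deposited log2 expression values, 1 per probe set and array, made with GCRMA (background correction, normalization and summary over the probes) per the submitters' processing notes; the version is not given in the sources used here. Array controls (77 of 22625 probe sets) were dropped, and probe sets over log2 5 in at least 3 of 27 arrays were tested, which left 11102, of which 10533 had 1 gene symbol, 378 several and 191 none. Genes were named through the platform's annotation, and chromosomes and older names through RefSeq (WBcel235).

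A model with 1 mean per group was fitted over all arrays with limma 3.58.1 in R 4.3.3. The 9 comparisons within an experiment used the deposited values, and the 6 between experiments used values quantile normalized over all arrays. P-values were two-sided and adjusted by Benjamini and Hochberg within a comparison, and a probe set was called where the adjusted p was under 0.05. The procedure was also run on simulated data, in which changes were fewer than in the data and larger than those of most members. That run does not measure how well changes of the members' size are called. The number of arrays limits the precision. Plots were made with matplotlib 3.10.9 (Python 3.11.15).

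Up to 5 called rises and 5 called falls were named per comparison, and always the paralogs, rps-6 and rps-27A. Up to 3 called genes of each other list were named as well, and a selection is printed. The members and lists were chosen with earlier results of these data known. Replicate numbers were not used as pairs, since same-numbered arrays did not deviate together from the means of their groups (of 27 correlations, 3 exceeded 0.1 and 16 lay below 0). The alternatives were no filter, centred arrays, quantile normalization or deposited values, ranks, a variance trend, a replicate block, the arrays of a comparison alone, 1 probe set per gene and leaving out each array.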

Additional observations from a re-analysis of the deposited data

Results flagged for a closer look

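These results are listed because the response to a treatment differed between ages or between preparations when the difference itself was tested. The test was a contrast of contrasts in limma on quantile normalized values with adjusted p under 0.05. The ages, like the preparations, came from separate experiments, so neither can be told apart from experiment. For 0.2 mM HF, 25 members (23.1%) had a higher change at 11 than at 3 days and 4 (3.7%) a lower one, against 21.8% and 18.2% of all tested probe sets, and ranks within arrays gave 1 and 1. Among the paralogs the difference was 0.31 for rpl-11.1, -0.48 for rpl-23A.1 and 0.49 for rpl-23A.2. For 2.0 mM HF the numbers were 39 (36.1%) and 6 (5.56%), against 31.8% and 29.4%, and ranks gave 2 and 3. The shares on the higher side are near those of all probe sets. Counts with ranks cannot decide whether the differences hold, since members near the top of every array can move little in rank. The difference was 0.27 for rpl-11.1, -0.51 for rpl-11.2, -0.64 for rpl-23A.1 and 0.55 for rpl-23A.2.

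Between preparations at 3 days (HF-HQ minus HF) 26 of 108 members were higher and 3 (2.78%) lower at 0.2 mM, against 21.8% and 15.5% of all tested probe sets, and ranks gave 1 and 1. The difference was 0.33 for rpl-11.1, -0.37 for rpl-23A.1 and 0.51 for rpl-23A.2. At 2.0 mM 31 (28.7%) were higher and 7 (6.48%) lower, against 23.3% and 22%. In both directions 35.2% were called against 45.3%, and ranks gave 1 and 2. The difference was 0.27 for rpl-11.1, -0.29 for rpl-11.2, -0.42 for rpl-23A.1 and 0.47 for rpl-23A.2. The comparisons share the arrays with HF at 3 days and are not independent of each other.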

How the results depend on the processing

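Counts below are members called higher and lower, and medians are of their log2 changes. With HF at 3 days, centred arrays gave 21 higher and 19 lower (median 0.0431) for 0.2 mM and 11 higher and 26 lower (median 0.0063) for 2.0 mM, quantile normalization a median of -0.0716 and a variance trend 9 higher for 0.2 mM. Between these doses 0 were higher with centred arrays (median -0.0287), a replicate block, the arrays of the comparison alone or 1 probe set per gene, 2 were lower with no filter or a variance trend, and quantile normalization gave 0 higher and 1 lower (median 0.0017). With 0.2 mM HF at 11 days 5 were higher with no filter or a variance trend, 0 with centred arrays (median -0.006), and 1 with quantile normalization, a replicate block or the arrays alone. With 2.0 mM 6 were higher with centred arrays (median 0.0048), 20 with a variance trend, 6 with a replicate block, 3 (and 2 lower) with the arrays alone and 5 with 1 probe set per gene. Between these doses 9 were higher with no filter or a variance trend, 7 higher and 4 lower with quantile normalization (median 0.0263), and 2 higher with a replicate block, the arrays alone or 1 probe set per gene (median 0.0081), and centring gave a median of 0.0071. With 0.2 mM HF-HQ 9 were higher with centred arrays (median 0.0708), 2 with quantile normalization, 8 with a variance trend, 1 with a replicate block, 0 with the arrays alone and 3 with 1 probe set per gene. With 2.0 mM 8 were higher with no filter, 2 with centred arrays or quantile normalization, 5 with a variance trend and 0 with a replicate block or the arrays alone. Between these doses 2 were lower with no filter or a variance trend, 4 with centred arrays (median -0.0428) and 0 with a replicate block, the arrays alone or 1 probe set per gene.

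Between untreated ages the deposited values gave 0 higher and 107 lower (median -0.6166), ranks 6 and 7, and 1 probe set per gene 23 higher. Between the untreated 3-day groups the deposited values gave 108 higher and 0 lower (median 1.3186) and ranks 16 and 12. On the deposited scale the change at 11 days was negative for rps-2 (-0.0915), rps-3A (-0.2532), rpl-15 (-0.2712), rpl-21 (-0.2801) and rpl-4 (-0.2598). In the HF-HQ experiment rps-13 (0.7102), rpl-41.1 (0.7846), rps-12 (0.7103), rps-9 (0.7458) and rpl-14 (0.7602) were higher on that scale. For the difference between ages ranks gave 1 higher and 1 lower at 0.2 mM and 2 and 3 at 2.0 mM, a variance trend 38 higher and 1 probe set per gene 16 higher at 0.2 mM. For the difference between preparations ranks gave 1 and 1 at 0.2 mM and 1 and 2 at 2.0 mM, and no filter or a variance trend 6 lower at 0.2 mM. The causes were not tested.

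Leaving out each array in turn gave 4 to 7 higher, 31 to 35 lower and medians of -0.0537 to -0.0350 with 0.2 mM HF at 3 days, and 5 to 7, 36 to 39 and -0.0665 to -0.0493 with 2.0 mM. Between these doses it gave 0 to 1, 0 to 1 and -0.0263 to -0.0139. At 11 days it gave 0 to 1, 0 to 0 and 0.0194 to 0.0379 with 0.2 mM, 5 to 13, 2 to 5 and 0.0203 to 0.0356 with 2.0 mM, and 1 to 6, 4 to 6 and -0.0076 to 0.0021 between them. With HF-HQ it gave 0 to 6, 0 to 0 and 0.0135 to 0.0406 with 0.2 mM, 0 to 2, 0 to 0 and 0.0078 to 0.0337 with 2.0 mM, and 0 to 0, 0 to 3 and -0.0142 to 0.0025 between them. For untreated ages it gave 32 to 37, 25 to 27 and 0.0275 to 0.0510, and for the untreated 3-day groups 40 to 44, 32 to 33 and 0.0205 to 0.0529. For the difference between ages it gave 19 to 25, 1 to 4 and 0.0892 to 0.1110 at 0.2 mM, and 33 to 40, 6 to 6 and 0.1130 to 0.1306 at 2.0 mM. For that between preparations it gave 20 to 27, 2 to 5 and 0.0763 to 0.0912 at 0.2 mM, and 25 to 29, 5 to 7 and 0.0616 to 0.0891 at 2.0 mM. With 2.0 mM HF at 11 days the extremes were 5 higher without the second control array and 2 lower without the third control or the third treated array. Over the named genes, calls were lost in 81 fits without 1 array, 15 with the arrays alone, 10 with a replicate block, 8 with quantile normalization, 7 with centred arrays, 30 with ranks and 3 with deposited values.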
